A study of Mus musculus with 19 samples.

Results

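Glycolysis is the chain of enzymes that turns glucose into pyruvate and lactate, and 10 genes of that chain are described here in ipsilateral and contralateral retinal ganglion cells (iRGCs and cRGCs) of the mouse embryo. The genes were chosen by name and are Hk1, Hk2, Gpi1, Pfkl, Pfkm, Pfkp, Aldoa, Pgk1, Pkm and Ldha. Each symbol was matched to 1 Ensembl gene of the GRCm38 annotation, and all 10 were found among the 47069 genes of the count tables and among the 15941 that could be tested.

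RNA was sequenced from sorted GFP-positive cells of retinas at E16.5, with 3 libraries of iRGCs and 3 of cRGCs. All libraries came from C57/DBA F1 embryos of pooled sexes, labelled wild type, that carried the Sun1-GFP reporter in the Rosa26 locus, a nuclear envelope protein fused to GFP that is made only after Cre has removed a stop cassette and that stays on in the descendants of that cell. In the iRGC libraries Cre came from a GENSAT line for the serotonin transporter gene (Slc6a4, also Sert). In the cRGC libraries it came from a line made by targeting the locus of Pou4f2 (also Brn3b), a transcription factor gene used by most RGCs. From the cRGC retinas the ventrotemporal (VT) part, where iRGCs lie, had been cut away. The targeted Pou4f2 allele was thus carried in the cRGC line, while the iRGC line carried the Sert-Cre. The Pou4f2 line marks RGCs in general, so that only the dissection keeps iRGCs out of the cRGC libraries. The libraries held between 28193178 and 33638083 reads counted on genes. The comparison asks which enzyme genes differ between the iRGC and the cRGC libraries. Axon path, Cre line and retinal region differ together between these libraries and cannot be told apart. The paper also describes the iRGCs as younger on average than the cRGCs at this stage.

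The labels were checked against marker genes before the enzymes were compared. Zic2, a transcription factor of iRGCs, measured 134, 173 and 157 CPM (counts scaled to library size) in the iRGC libraries and 57.0, 60.2 and 65.7 CPM in the cRGC libraries. Isl2, which marks cRGCs, measured 19.1, 21.6 and 23.9 CPM in iRGCs and 130, 112 and 45.7 CPM in cRGCs. Slc6a4, the gene behind the Cre line of the iRGCs, measured 2.06, 33.4 and 116 CPM in iRGCs and 48.1, 35.4 and 30.5 CPM in cRGCs. Thus Zic2 and Isl2 separated the populations in the direction of the labels, while Slc6a4 did not, and iRGC replicate 1 held the lowest Slc6a4 level of all 6 libraries. These 3 genes were picked for this check after values of the data were known. The genes past the threshold are therefore also given without iRGC replicate 1, at the end of the results.

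The populations also differed in the markers of cell types. Among all tested genes, 23.3% were higher and 23.1% were lower in iRGCs (edgeR, adjusted p-value under 0.1), which is the background for the counts of marker genes. The 15 markers of retinal progenitors, led by Ccnd1, summed to 8348, 7572 and 6542 CPM in iRGCs and to 835, 1966 and 1320 CPM in cRGCs, and 15 of 15 were higher in iRGCs. The 15 cell cycle genes, led by Top2a, summed to 4483, 3811 and 3689 CPM in iRGCs and to 472, 1076 and 694 CPM in cRGCs, and again 15 of 15 were higher. The 15 markers of RGCs, led by the neurofilament gene Nefm, summed to 2610, 3643 and 5548 CPM in iRGCs against 14460, 13050 and 16040 CPM in cRGCs, and 14 of 15 were lower in iRGCs. These lists differed between the same groups of libraries as the enzyme genes described below. Their part in the enzyme differences was not tested, and agreement library by library was not assessed. In bulk RNA, fewer cells of a type and less RNA per cell cannot be told apart.

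Glycolysis splits glucose in the cytosol and yields ATP without oxygen. Hexokinases trap glucose by adding a phosphate, phosphofructokinase makes the committed step, and lactate dehydrogenase turns pyruvate into lactate so that the pathway can continue. Several steps are run by sister enzymes from different genes, which differ in affinity, regulation and tissue. The retina is a classical tissue of aerobic glycolysis, in which lactate is made although oxygen is present.

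Promoter sequence is shown for the 4 genes whose difference between the populations is described in most detail, so that the pair of hexokinases, the phosphofructokinase gene with the highest cRGC level and Ldha can be read side by side. HIF and MYC proteins are known to bind glycolytic genes at short motifs, and the windows were searched for ACGTG (the core bound by HIF) and GCGTG (its variant), on both strands, and for CACGTG (the MYC E-box), which reads ACGTG on each strand and so counts 2 times under that motif. Each line gives the 250 bases before the 5′-most start in the RefSeq promoter table (GRCm38.p6), 5′ to 3′ on the strand of the gene, with matches in capitals. The positions are chr10:62379909-62380158 (minus) for Hk1, chr6:82774455-82774704 (minus) for Hk2, chr13:6648772-6649021 (minus) for Pfkp and chr7:46845554-46845803 (plus) for Ldha.
Hk1: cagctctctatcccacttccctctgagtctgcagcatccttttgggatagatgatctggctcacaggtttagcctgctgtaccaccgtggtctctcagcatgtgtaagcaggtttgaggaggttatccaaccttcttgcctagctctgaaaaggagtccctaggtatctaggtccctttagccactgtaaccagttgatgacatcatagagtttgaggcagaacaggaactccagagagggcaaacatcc
Hk2: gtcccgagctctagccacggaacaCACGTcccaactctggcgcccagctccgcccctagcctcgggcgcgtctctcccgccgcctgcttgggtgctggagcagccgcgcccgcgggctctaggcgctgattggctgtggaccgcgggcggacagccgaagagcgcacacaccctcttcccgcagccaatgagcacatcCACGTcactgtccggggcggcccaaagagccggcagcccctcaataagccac
Pfkp: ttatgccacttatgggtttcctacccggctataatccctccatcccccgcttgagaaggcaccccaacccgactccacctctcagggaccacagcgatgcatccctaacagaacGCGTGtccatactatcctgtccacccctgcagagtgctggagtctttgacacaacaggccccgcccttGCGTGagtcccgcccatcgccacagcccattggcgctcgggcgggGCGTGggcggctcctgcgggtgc
Ldha: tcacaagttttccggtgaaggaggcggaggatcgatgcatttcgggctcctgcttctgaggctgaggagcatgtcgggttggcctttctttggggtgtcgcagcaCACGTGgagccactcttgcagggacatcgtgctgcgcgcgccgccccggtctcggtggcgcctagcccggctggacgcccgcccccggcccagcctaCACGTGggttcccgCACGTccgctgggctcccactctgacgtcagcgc
The Hk2 window held ACGTG 2 times, and the printed window of its sister gene Hk1 held neither motif. The window before the further Hk1 start (chr10:62340422-62340671, minus strand) held GCGTG 3 times. The Pfkp window held GCGTG 3 times, and the Ldha window held ACGTG 5 times, which includes CACGTG 2 times. Over the 18 windows that RefSeq gives for the 10 genes, ACGTG was in 8 windows (6 genes), against 16.6% of 32851 mouse windows of this length. GCGTG was in 6 windows (5 genes), against 28.2% of mouse windows, and CACGTG in 2 windows, of Pfkm and Ldha, against 6.02%. A match is a description of letters and not a binding site, and a window without a match says only that the letters are not in these bases. Several genes have more than 1 start in the table, and the counts do not show which start was used. Windows of neighbouring starts of Aldoa and of Pfkm overlap, so that the same match can count in 2 windows. The further Ldha window held GCGTG 1 time.

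Of the 10 enzyme genes, Hk2 and Ldha were higher in iRGCs, and Hk1, Gpi1, Pfkm and Pfkp were lower, at an adjusted p-value under 0.1 in the quasi-likelihood test of edgeR over all tested genes. Thus 20% of the genes were higher, beside 23.3% of all tested genes, and 40% were lower, beside 23.1%. Pfkl, Aldoa, Pgk1 and Pkm did not pass the test. The 3 iRGC values lay above the 3 cRGC values for 3 genes (Hk2, Pkm and Ldha; 27.1% of all genes did this), below them for 4 (28.2% of all genes), and overlapped them for 3. The median log2 fold change over the 10 genes was -0.08, and the median over all tested genes was -0.00307. Genes higher and genes lower in iRGCs thus stood side by side, at the hexokinase step for example.

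**Figure D1:**
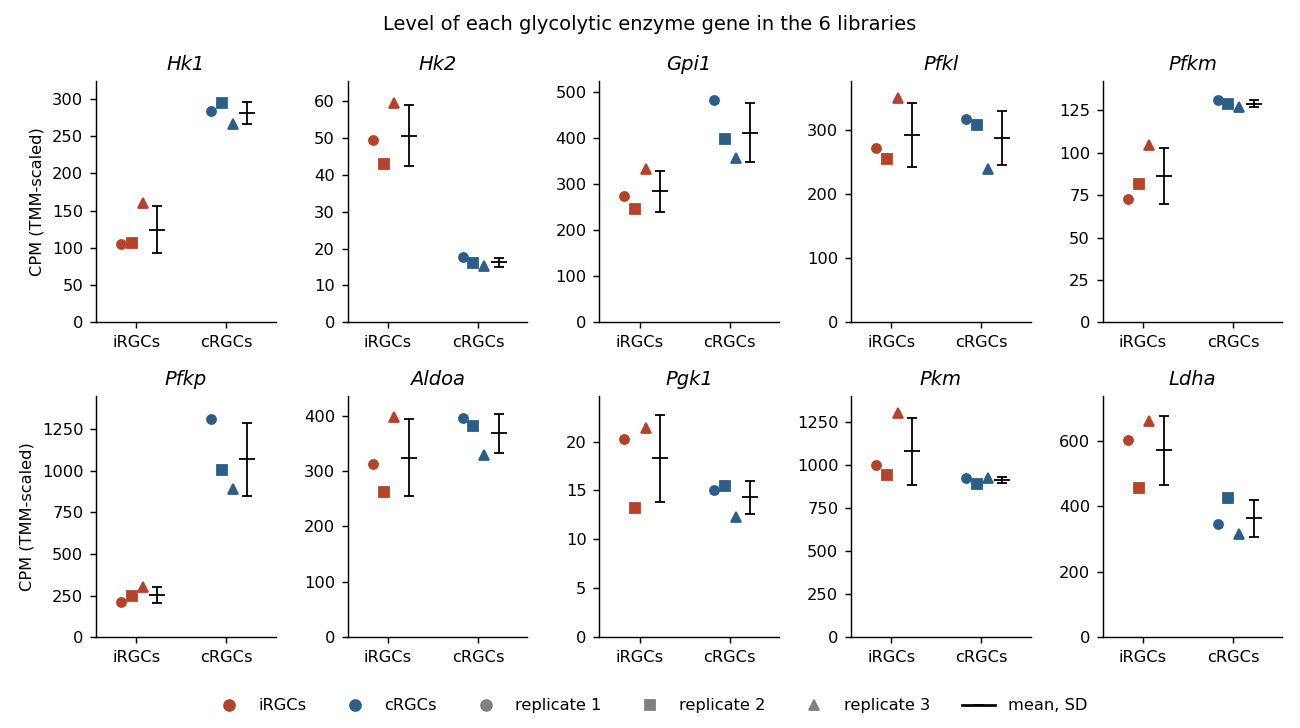
Level of each of the 10 enzyme genes in CPM (y axes, from 0) in the 3 iRGC and 3 cRGC libraries (symbols by replicate number), with mean and SD. Hk1, Gpi1, Pfkm and Pfkp lie lower in every iRGC library, Hk2, Pkm and Ldha lie higher, and Pfkl, Aldoa and Pgk1 overlap.

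Glucose is trapped by hexokinases, and the genes of this step differed in opposite directions. Hk1 (chr10:62268855-62379908, minus strand), which encodes the hexokinase typical of brain, measured 106, 107 and 161 CPM in iRGCs and 284, 294 and 266 CPM in cRGCs. Every iRGC library was below every cRGC library, and iRGC replicate 3 came closest to them. The mean was 2.26-fold higher in cRGCs (124 ± 31.6 against 281 ± 14.4 CPM, SD, n = 3 each), with a log2 fold change of -1.18 (SE 0.17, edgeR adjusted p = 7.5e-04).

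Hk2 (chr6:82725025-82774454, minus strand), which encodes the hexokinase known from muscle, fetal tissue and tumours, measured 49.5, 42.8 and 59.5 CPM in iRGCs and 17.6, 16.0 and 15.2 CPM in cRGCs. The groups were well apart, and the cRGC libraries lay close together. The mean was 3.11-fold higher in iRGCs (50.6 ± 8.37 against 16.3 ± 1.24 CPM, SD, n = 3 each), with a log2 fold change of 1.64 (SE 0.17, edgeR adjusted p = 2.34e-04). Within each library, counts per kilobase of exon gave Hk2 to Hk1 ratios of 0.671, 0.575 and 0.529 in iRGCs and of 0.0888, 0.0779 and 0.0817 in cRGCs. The ratio was thus higher in every iRGC library, by 2.83 on the log2 scale. The exact permutation test gave p = 0.1, two-sided, the smallest that 3 libraries against 3 allow, and 0.12 after Benjamini-Hochberg adjustment over the 6 isozyme ratios tested. Hk1 stayed the more abundant hexokinase of the pair per kilobase in all 6 libraries.

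Hkdc1, the gene of a further hexokinase domain protein, was also higher in iRGCs, with 26.1, 14.8 and 37.9 CPM against 3.88, 10.4 and 5.65 CPM (log2 fold change 1.98, SE 0.43, edgeR adjusted p = 0.00608). Hk3 was too low to be tested. Of the hexokinase genes described here, 1 was therefore lower and 2 were higher in iRGCs.

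The next enzyme, glucose-6-phosphate isomerase, comes from the single gene Gpi1 (chr7:34201330-34230336, minus strand). Gpi1 measured 275, 247 and 334 CPM in iRGCs and 483, 398 and 357 CPM in cRGCs. The groups did not overlap, but the highest iRGC and the lowest cRGC library were close. The log2 fold change was -0.53 (SE 0.15, edgeR adjusted p = 0.0207). Of the exonic bases of Gpi1, 11.5% are shared with Gm26762 in the annotation. Reads on these bases may have been left uncounted as ambiguous, which depends on the strand setting, not given in the sources.

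Phosphofructokinase is a tetramer that can be built from liver (Pfkl), muscle (Pfkm) and platelet (Pfkp) subunits, and these 3 genes behaved differently. Pfkp (chr13:6579768-6648777, minus strand) measured 210, 246 and 304 CPM in iRGCs and 1313, 1005 and 890 CPM in cRGCs. Each cRGC library held far more than any iRGC library. The mean was 4.22-fold higher in cRGCs (253 ± 47.6 against 1069 ± 219 CPM, SD, n = 3 each), and the log2 fold change of -2.08 (SE 0.18, edgeR adjusted p = 2.05e-04) was the largest in size among the 10 genes.

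Pfkm (chr15:98092589-98132451, plus strand) measured 72.5, 81.3 and 105 CPM in iRGCs and 131, 129 and 127 CPM in cRGCs. The cRGC libraries agreed closely and all lay above the iRGC libraries, with a log2 fold change of -0.58 (SE 0.14, edgeR adjusted p = 0.011). Of its exonic bases, 10.7% are shared with Gm26513. Pfkl (chr10:77986947-78010083, minus strand) measured 273, 255 and 350 CPM in iRGCs and 317, 308 and 239 CPM in cRGCs. These values overlapped, and the log2 fold change was 0.02 (SE 0.16, edgeR adjusted p = 0.93), with a sign that turned when replicate 3 of either population was left out.

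The make-up of the subunit transcripts was compared within each library, per kilobase of exon. The Pfkp share of Pfkl, Pfkm and Pfkp together was 20.0%, 22.7% and 21.3% in iRGCs and 53.0%, 47.0% and 47.3% in cRGCs. The difference, iRGCs minus cRGCs, was -27.8 percentage points (exact permutation p = 0.1, adjusted 0.12). The Pfkm share was 27.7%, 30.1% and 29.5% in iRGCs and 21.2%, 24.1% and 27.1% in cRGCs, which is 4.95 percentage points higher in iRGCs (exact permutation p = 0.1, adjusted 0.12), or 3.24 points per kilobase of the longest transcript, although the level of Pfkm itself was lower there. The Pfkl share, added after the values were seen, was 52.2%, 47.2% and 49.2% in iRGCs and 25.7%, 28.9% and 25.6% in cRGCs. Per kilobase of exon, Pfkl transcripts therefore led in every iRGC library and Pfkp transcripts in every cRGC library. The shares depend on the lengths. Pfkp has 13401 bases of exon but 4145 in its longest protein-coding transcript, with which the shares were not computed and the Pfkp share could be larger.

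**Figure D2:**
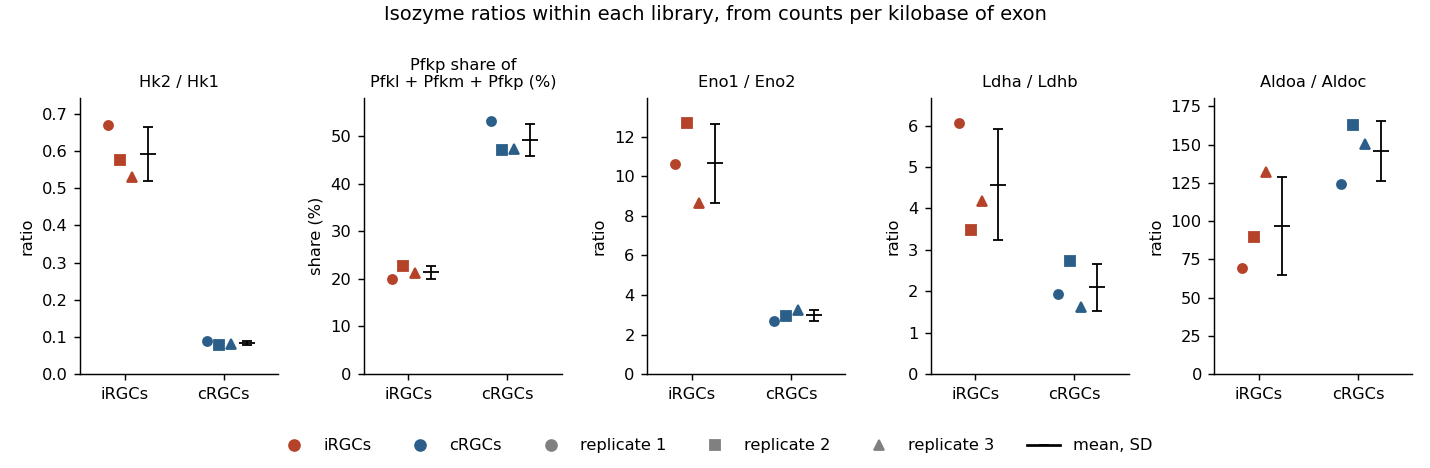
Ratios of sister genes within each library, from counts per kilobase of exon (y axes, from 0; the Pfkp panel is a share in percent), with the 3 iRGC and 3 cRGC libraries as symbols and mean and SD beside them. The populations are apart for Hk2 to Hk1, the Pfkp share, Eno1 to Eno2 and Ldha to Ldhb, and they overlap for Aldoa to Aldoc.

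Phosphofructokinase is switched on by fructose-2,6-bisphosphate, which the Pfkfb enzymes make and break and which Tigar lowers. Of the 5 genes of this control, 4 were lower in iRGCs (80%, beside 23.1% of all tested genes) and 0 were higher (beside 23.3%). Pfkfb3, the most abundant, measured 54.8, 44.4 and 65.0 CPM in iRGCs and 121, 86.6 and 98.3 CPM in cRGCs (log2 fold change -0.90, SE 0.18, edgeR adjusted p = 0.00351). Tigar, which acts against the Pfkfb3 product, measured 18.0, 21.7 and 22.7 CPM in iRGCs and 37.6, 36.7 and 46.9 CPM in cRGCs (log2 fold change -0.96, SE 0.17, edgeR adjusted p = 0.00201). Both sides of the control were thus lower in the same libraries. Pfkfb2 and Pfkfb4 had log2 fold changes of -0.73 and -0.82 without overlap, and Pfkfb1 overlapped at -0.28.

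The middle of the pathway showed no difference that passed the test. Aldoa (chr7:126795234-126800751, minus strand), the main aldolase gene here, measured 313, 262 and 398 CPM in iRGCs and 396, 380 and 329 CPM in cRGCs. The ranges overlapped (log2 fold change -0.19, SE 0.16, edgeR adjusted p = 0.396). Aldoa exceeded its sister gene Aldoc, the brain aldolase, 69.4-fold to 132-fold per kilobase in iRGCs and 124-fold to 163-fold in cRGCs, and these ranges overlapped as well (exact permutation p = 0.2). Tpi1, which interconverts the trioses that aldolase makes, measured 334, 305 and 417 CPM in iRGCs and 344, 373 and 306 CPM in cRGCs, with a log2 fold change of 0.05 (SE 0.14).

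Pgk1 (chrX:106187100-106203699, plus strand), the gene of the first ATP-forming step, measured 20.3, 13.2 and 21.4 CPM in iRGCs and 15.1, 15.5 and 12.3 CPM in cRGCs. The groups overlapped (log2 fold change 0.36, SE 0.23, edgeR adjusted p = 0.264). Its level is a lower limit, since 92.9% of the 50-base windows of its transcript occur elsewhere in the genome and reads without a unique place were not counted. The same holds for Gapdh, with 85.6% of windows found elsewhere and only 3.03 to 15.0 CPM over the 6 libraries, and for Pgam1, with 94.8% and 6.99 to 12.9 CPM. For Hk2, Pfkm and Pfkp this share was 0%, for Hk1 0.0473% and for Pfkl 0.38%, while it was 14.8% for Aldoa, 24.7% for Gpi1, 28.3% for Ldha and 40.5% for Pkm.

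Among the enolases, which make phosphoenolpyruvate, the general form and the neuronal form went opposite ways. Eno1 measured 302, 271 and 342 CPM in iRGCs and 200, 225 and 180 CPM in cRGCs (log2 fold change 0.60, SE 0.13, edgeR adjusted p = 0.00541). Eno2, the neuronal form, measured 24.9, 18.7 and 34.5 CPM in iRGCs and 65.0, 66.6 and 48.2 CPM in cRGCs (log2 fold change -1.20, SE 0.23, edgeR adjusted p = 0.00321). Neither gene overlapped between the populations. The Eno1 to Eno2 ratio per kilobase was 10.6, 12.7 and 8.67 in iRGCs and 2.69, 2.95 and 3.26 in cRGCs, a difference of 1.83 on the log2 scale (exact permutation p = 0.1, adjusted 0.12). Copies of Eno1 elsewhere cover 72.2% of its windows, so that its level, and this ratio in each library, are lower limits.

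Pyruvate kinase makes pyruvate and the second ATP. Pkm (chr9:59656368-59679375, plus strand) had the highest mean counted level of the 10 genes per kilobase of exon in both populations, with an overlap with Ldha in iRGCs. It measured 1002, 942 and 1304 CPM in iRGCs and 926, 892 and 924 CPM in cRGCs. Every iRGC library lay above every cRGC library, yet the margin was small and the difference missed the threshold (log2 fold change 0.24, SE 0.13, edgeR adjusted p = 0.183). The M1 and M2 forms of pyruvate kinase are spliced from this gene, and counts per gene do not separate them. Of its exonic bases 15.3% are shared with Gm49759, and 40.5% of its windows occur elsewhere.

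Lactate dehydrogenase ends the pathway, and its A and B subunits differed in opposite directions. Ldha (chr7:46841475-46855627, plus strand), whose subunit favours lactate, measured 602, 455 and 660 CPM in iRGCs and 348, 425 and 317 CPM in cRGCs. The groups did not overlap, although iRGC replicate 2 came close to cRGC replicate 2. The mean was 1.58-fold higher in iRGCs (572 ± 106 against 363 ± 55.5 CPM, SD, n = 3 each), with a log2 fold change of 0.66 (SE 0.16, edgeR adjusted p = 0.0115).

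Ldhb, whose subunit favours pyruvate, measured 47.1, 61.9 and 74.8 CPM in iRGCs and 85.0, 73.8 and 92.4 CPM in cRGCs. It was lower in iRGCs (log2 fold change -0.45, SE 0.18, edgeR adjusted p = 0.0724; adjusted p = 0.167 without iRGC replicate 1), with an overlap of iRGC replicate 3 and cRGC replicate 2. The Ldha to Ldhb ratio per kilobase was 6.06, 3.49 and 4.18 in iRGCs and 1.94, 2.73 and 1.63 in cRGCs, a difference of 1.12 on the log2 scale (exact permutation p = 0.1, adjusted 0.12). Of their windows, 28.3% (Ldha) and 33.6% (Ldhb) occur elsewhere, so that both levels are lower limits and the size of the ratio in a library is uncertain. Ldhc, the testis form, had no count in any library.

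Of all 18 other glycolytic enzyme genes on the list, 10 could be tested, 2 were higher in iRGCs (Hkdc1 and Eno1) and 2 were lower (Eno2 and Ldhb), which is 20% each way beside 23.3% and 23.1% of all tested genes. Their median log2 fold change was 0.14. Together with the 10 enzyme genes, each isozyme pair of the first and the last steps thus held members on both sides of 0.

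**Figure D3:**
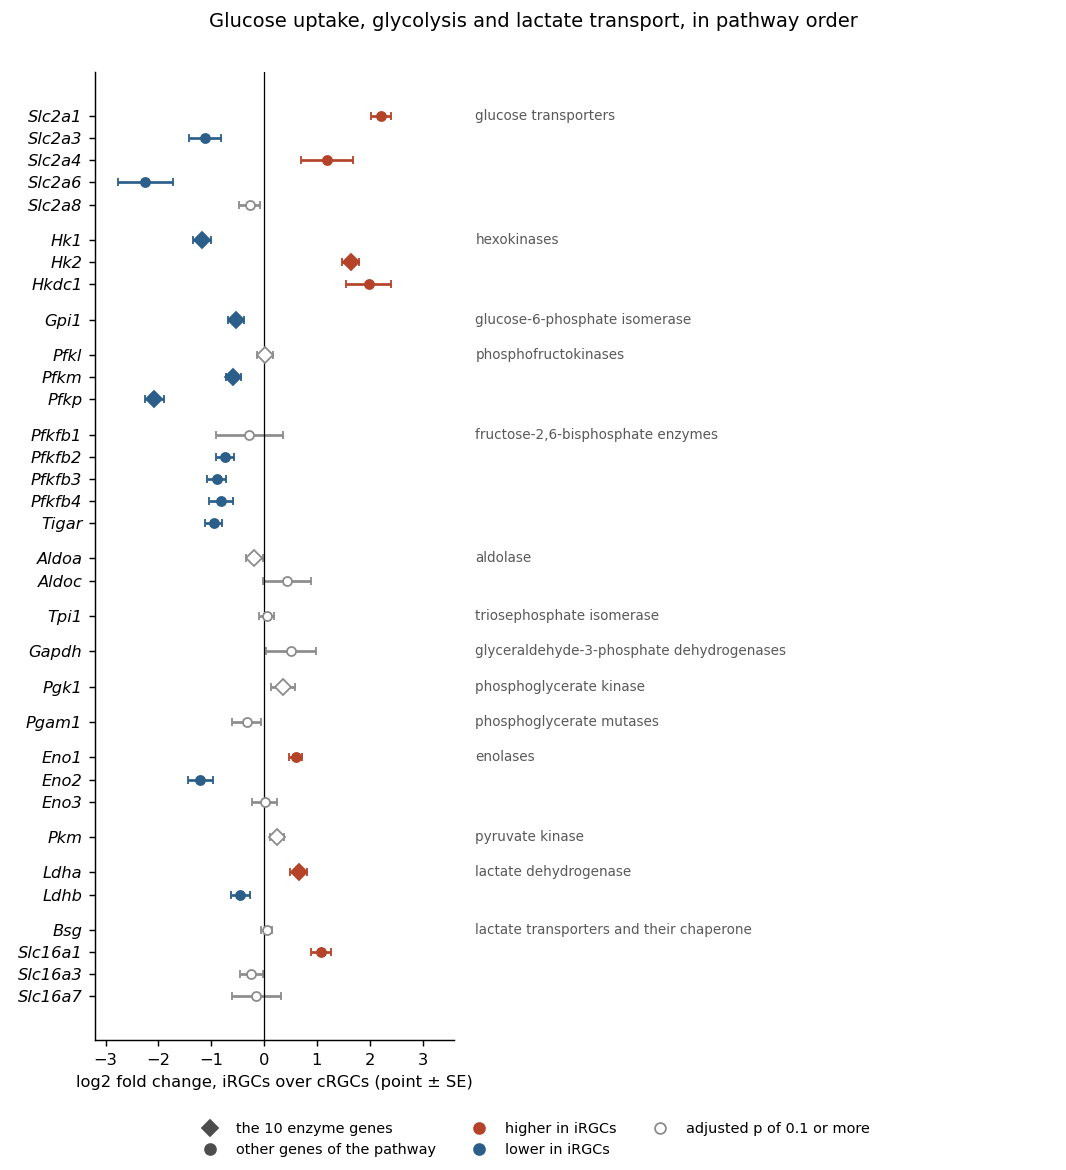
Log2 fold change of iRGCs over cRGCs (x axis, point and SE) for tested genes of glucose uptake, glycolysis, its control and lactate transport, in pathway order, with diamonds for the 10 enzyme genes and filled symbols at an adjusted p-value under 0.1. Hexokinases, enolases, lactate dehydrogenases and glucose transporters have filled symbols on both sides of 0, and the 4 filled symbols of the fructose-2,6-bisphosphate enzymes lie below it.

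Glucose enters by transporters of the Slc2a family, whose members also differed in opposite directions. Slc2a1, the transporter (GLUT1) of many growing cells and of the vessel wall, measured 573, 574 and 541 CPM in iRGCs and 94.3, 161 and 107 CPM in cRGCs (log2 fold change 2.22, SE 0.19, edgeR adjusted p = 2.05e-04). Slc2a3, the neuronal transporter (GLUT3), measured 17.7, 15.5 and 34.8 CPM in iRGCs and 58.1, 49.8 and 39.95 CPM in cRGCs (log2 fold change -1.12, SE 0.30, edgeR adjusted p = 0.0164). The ranges of both genes were apart between the populations. The Slc2a1 to Slc2a3 ratio per kilobase, added after the values were seen, was 66.9, 76.7 and 32.1 in iRGCs and 3.35, 6.66 and 5.55 in cRGCs.

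Vessel markers were looked at beside Slc2a1. Cdh5, a defining gene of endothelial cells, measured 15.2, 81.3 and 0.158 CPM in iRGCs and had no count in the 3 cRGC libraries. Pecam1, another, measured 9.65, 53.0 and 0.284 CPM in iRGCs and 0, 0.725 and 0 CPM in cRGCs. The 10 endothelial genes, led by Kdr, summed to 458, 677 and 434 CPM in iRGCs and to 87.2, 108 and 70.3 CPM in cRGCs. Only 5 of the 10 could be tested, some of them through the counts of the iRGC libraries alone, so that no count of calls is read for this list. Kdr alone made up 366, 320 and 418 CPM of the iRGC sums and 83.7, 103 and 67.6 CPM of the cRGC sums, and in iRGC replicate 3 the next gene, Cldn5, was at 11.8 CPM. The part of vessel cells in the Slc2a1 difference was not tested.

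Of the 10 transport genes, 9 were tested, of which 3 were higher in iRGCs (33.3%, beside 23.3% of all tested genes) and 2 were lower (22.2%, beside 23.1%). Slc16a1 (MCT1), a carrier of lactate and pyruvate, measured 36.1, 53.2 and 39.2 CPM in iRGCs and 22.1, 19.2 and 19.4 CPM in cRGCs (log2 fold change 1.08, SE 0.18, edgeR adjusted p = 0.00168). The low transporters Slc2a4 (log2 fold change 1.18, SE 0.49) and Slc2a6 (-2.25, SE 0.53) also passed the test, and without iRGC replicate 2 Slc2a4 did not (0.92, edgeR adjusted p = 0.276). Slc16a3 (MCT4), the lactate exporter of glycolytic cells, and Bsg, the chaperone of these carriers, overlapped, with log2 fold changes of -0.24 (SE 0.22) and 0.05 (SE 0.10).

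Pyruvate enters mitochondria through its carrier and the pyruvate dehydrogenase complex, and of these 13 genes 1 was higher (7.69%, beside 23.3% of all tested genes) and 3 were lower in iRGCs (23.1%, the same as among all tested genes). Pdk3, a kinase that shuts the complex, was higher, with 26.5, 31.5 and 30.1 CPM against 19.5, 19.2 and 17.9 CPM (log2 fold change 0.64, SE 0.16, edgeR adjusted p = 0.0107). The other kinases of the complex did not pass, with log2 fold changes of 0.26 (SE 0.21) for Pdk1, the most abundant, 0.06 (SE 0.19) for Pdk2 and 3.42 (SE 1.61) for Pdk4, which was under 2 CPM. Pdp1 and Pdp2, the phosphatases that reopen it, were lower, with log2 fold changes of -0.62 (SE 0.19) and -0.69 (SE 0.18). Pdha1, a catalytic subunit, was lower at -0.51 (SE 0.15). No library overlapped between the populations for these 4 genes, and Dlat, Dld, Pdhb and Pdhx, which encode the rest of the complex, overlapped with log2 fold changes between -0.09 and 0.12.

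The levels of the 10 genes were also set side by side as counted per kilobase of exon. Genes with copies elsewhere lose reads that are not unique (Pgk1, Pkm, Ldha, Gpi1 and Aldoa, for 92.9%, 40.5%, 28.3%, 24.7% and 14.8% of windows), so that their levels are lower limits and their places could be higher. In iRGCs the order of counted levels was Pkm (216 ± 38.8 CPM per kb, SD, n = 3), Ldha, Aldoa, Gpi1, Pfkl, Pfkm, Pfkp, Hk1, Hk2 and Pgk1 (8.16 CPM per kb). Neighbours whose ranges over the libraries overlapped were Pkm and Ldha, Gpi1 and Pfkl, Pfkm and Pfkp, Pfkp and Hk1, and Hk2 and Pgk1. In cRGCs the order of counted levels was Pkm (183 CPM per kb), Aldoa, Ldha, Pfkp, Gpi1, Pfkl, Pfkm, Hk1, Pgk1 and Hk2 (2.73 CPM per kb), and Aldoa and Ldha, Ldha and Pfkp, Pfkp and Gpi1, and Pfkl and Pfkm overlapped. The order depends on the length used. Pfkp was divided by 13401 bases of exon, while its longest protein-coding transcript has 4145 bases. An order with that length was not computed, and Pfkp could stand higher. Per kilobase of the longest transcript, a length tried after the values were seen, Pgk1 stood above Hk2 in iRGCs with overlapping ranges, and Pfkm, Pfkp and Hk1 also overlapped there. In cRGCs, Hk1 (65.7 CPM per kb) then stood above Pfkm (44.8) and Gpi1 (129) above Pfkp (123), the last pair with overlap. With either length, Pfkp stood above Pfkl and Pfkm in cRGCs.

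Libraries of the same population kept much of their order over the 10 genes. Replicate 3 had the highest iRGC value for 10 of 10 genes, and replicate 2 the lowest for 7. Among cRGCs, replicate 1 had the highest value for 7 genes and replicate 3 the lowest for 9. The summed level of the 10 genes was 2922, 2650 and 3696 CPM in iRGCs and 4229, 3861 and 3476 CPM in cRGCs, so that the populations overlapped in the sum. iRGC replicate 3 also had the smallest share of reads outside genes, 8.09% against 12.9% to 16.8% in the other libraries, and the highest RGC marker sum of the iRGC libraries. Whether these go together with its enzyme levels was not tested.

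**Figure D4:**
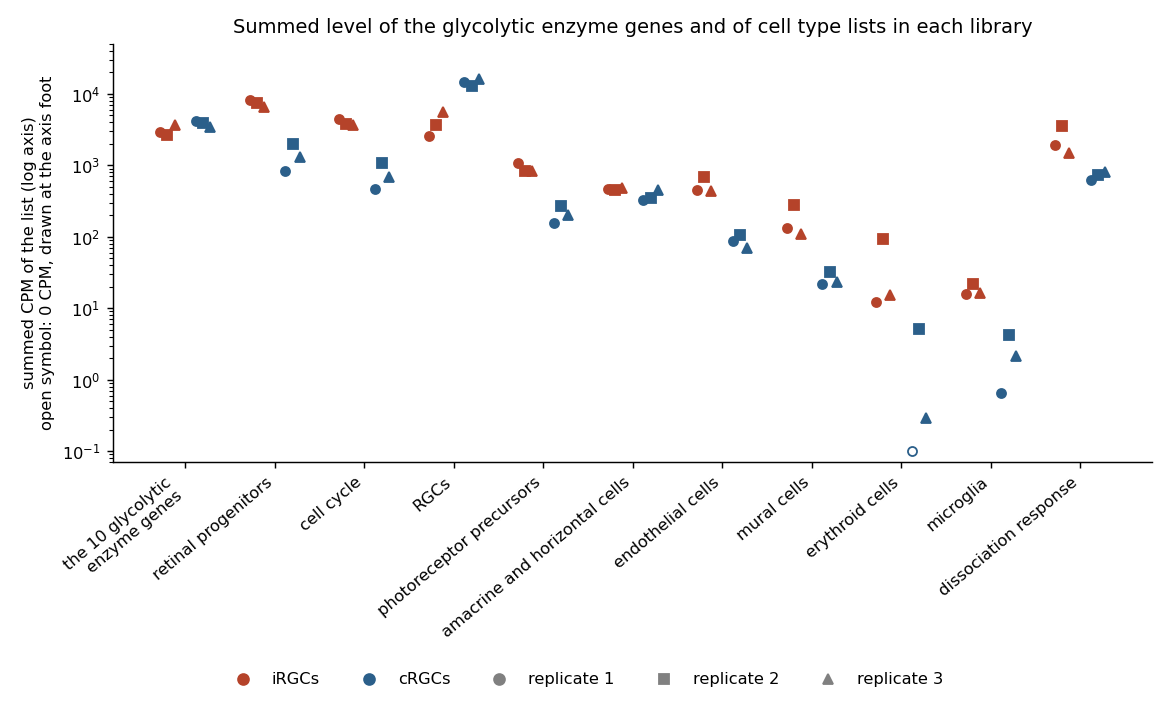
Summed CPM (log axis) of the 10 enzyme genes and of lists of cell type markers in each library, with symbols by population and replicate and an open symbol for a sum of 0. The enzyme sums overlap between the populations, the progenitor and cell cycle sums are higher in every iRGC library, and the RGC sum is higher in every cRGC library.

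Other cell types gave lower sums, and their counts of genes stand beside 23.3% of all tested genes higher and 23.1% lower in iRGCs. The photoreceptor precursor genes, led by Neurod1, summed to 1068, 830 and 840 CPM in iRGCs and to 154, 274 and 202 CPM in cRGCs, and the 6 of 7 that could be tested were higher in iRGCs. Sums of amacrine and horizontal cell genes, led by Onecut2, overlapped, with 460, 456 and 480 CPM in iRGCs and 326, 349 and 458 CPM in cRGCs, and 5 of 9 genes were higher. Mural cell genes, led by Notch3, summed to 135, 280 and 111 CPM in iRGCs and to 21.9, 32.6 and 23.3 CPM in cRGCs, with Notch3 alone at 113, 117 and 83.5 CPM in iRGCs. Erythroid genes, led by Hbb-bs, summed to 12.2, 92.7 and 15.3 CPM in iRGCs and to 0, 5.18 and 0.29 CPM in cRGCs. Microglial genes, led by Csf1r, summed to 15.9, 22.2 and 16.4 CPM in iRGCs and to at most 4.18 CPM in cRGCs. For mural, erythroid and microglial genes no count of calls is read, since not all could be tested and genes could enter the test through the iRGC libraries alone. The response to tissue dissociation, led by Fos, was higher in iRGCs for 8 of 11 genes, with sums of 1940, 3542 and 1503 CPM against 626, 744 and 795 CPM. Astrocyte genes of the optic stalk, led by Slc1a3, summed to 207, 150 and 179 CPM against 27.6, 47.6 and 31.9 CPM. Slc1a3 alone made up 202, 146 and 175 CPM of the iRGC sums, Aldh1l1 was lower in iRGCs (log2 fold change -1.09), and Gfap, Pax2 and Aqp4 were at most 0.866 CPM in any library. Pigment epithelium (led by Mitf) and lens genes (led by Bfsp1, with Lim2 at 0) summed to at most 8.25 CPM in each library.

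Since iRGC replicate 1 was low in Slc6a4 and iRGC replicate 2 was highest in vessel, blood and dissociation genes, the enzymes were compared without each of them. Without replicate 1, the log2 fold changes were -1.07 for Hk1, 1.65 for Hk2, -0.51 for Gpi1, -0.47 for Pfkm, -1.96 for Pfkp and 0.62 for Ldha. Without replicate 2, they were -1.08, 1.75, -0.44, -0.54, -2.05 and 0.80 in the same order. In both fits these 6 genes stayed past the threshold in edgeR, with Gpi1 at the highest adjusted p-values, 0.06 and 0.0859. Without replicate 2, Pgk1 also passed, with a log2 fold change of 0.55 (SE 0.20, edgeR adjusted p = 0.0804).

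The same fits were read for all 45 genes past the threshold among the 10 enzymes and the other metabolic lists, an alternative chosen after seeing the data. Without replicate 1, 40 kept their direction and passed again, and without replicate 2, 39 did. Ldhb did not pass in either fit, with log2 fold changes of -0.29 and -0.46 (edgeR adjusted p = 0.167 and 0.152), nor did Pgd or Myc. Kdm3a and Mxi1 did not pass without replicate 1, and Slc2a4, Gpd1 and Hif1a did not pass without replicate 2. Slc2a1 was at 2.21 in both fits, and Slc2a3 was at -0.97 and -0.91, with edgeR adjusted p-values of 0.0554 and 0.0571. None of the 45 genes changed sign in these 2 fits.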

How the data were processed

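The authors aligned 50-base reads to mm10 with HISAT2 2.1.0, counted uniquely placed reads on Ensembl genes of GRCm38 with HTSeq 0.11.1 and deposited raw counts per gene, 1 table per library. The strand setting is not given in the sources used here. HTSeq tallies naming no gene (8.09% to 16.8% of tallied alignments off genes, 25.9% to 33.0% not unique) stayed out of library sizes. The 13 ATAC-seq samples were not analysed here.

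The test was that of edgeR 4.0.16 in R 4.3.3 (filterByExpr, TMM, quasi-likelihood F test, two-sided, Benjamini-Hochberg over 15941 genes, adjusted p-value under 0.1). SEs were the absolute log2 fold change over the square root of F. CPM are TMM-scaled. Ratios used exact permutation tests in scipy 1.17.1. Symbols and exon lengths came from GENCODE M21. Copies elsewhere were counted from 50-base windows of the longest protein-coding transcript of each gene. No label states that replicates came from separate litters. The edgeR p-values therefore set the difference between the populations against variation between these libraries, and may not carry over to other litters.

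All 10 genes are named. Of each metabolic list every gene past the threshold is named, up to 6 by mean CPM, and of each cell type list the most abundant gene and those at 0. Single genes of 2 lists are not reported here. Further genes were named after their values were seen. The members and lists were chosen with earlier results of these data known. The fit was tested on simulated data for iRGCs against cRGCs, with 15941 genes of which 200 were changed: edgeR recovered 39% of the 2-fold and 72.6% of the 4-fold changes, and 6.78% of its calls were false. In the data 7395 of the tested genes passed, far more than were changed in the simulation. These rates therefore need not hold for the comparison itself.

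Alternatives were DESeq2 size factors, upper quartile factors, the test of DESeq2 1.42.0, voom of limma 3.58.1, leaving out each library, a filter of 10 counts throughout or none, the replicate number as a block, other thresholds and the longest transcript as length. Figures were drawn with matplotlib 3.10.9.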

Additional observations from a re-analysis of the deposited data

How the results depend on the processing

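Of 140 values of the 10 enzyme genes under the alternatives, 135 kept their direction and their side of the threshold, 3 passed it newly and 2 changed sign. The log2 fold change of Pfkl ranged from -0.14 to 0.11 with 1 library left out, with -0.14 without iRGC replicate 3 and -0.09 without cRGC replicate 3. Aldoa passed without iRGC replicate 3 (log2 fold change -0.37, edgeR adjusted p = 0.0442), Pgk1 without iRGC replicate 2 (0.55) and Pkm with upper quartile factors (0.27, adjusted p = 0.0889), and the cause was not tested. These same genes also moved towards 0, with Pkm at 0.08 and Pgk1 at 0.22 without iRGC replicate 3 and Aldoa at -0.05 without iRGC replicate 2. With an absolute log2 fold change above 1 as well, 1 enzyme gene (Hk2) was higher in iRGCs, 2 (Hk1 and Pfkp) were lower, and 3688 of all genes were past the threshold in place of 7395, because the rule is stricter. With each library left out in turn, the log2 fold changes ranged from -1.42 to -1.07 for Hk1, from 1.497 to 1.75 for Hk2, from -2.24 to -1.92 for Pfkp and from 0.53 to 0.80 for Ldha. The Pfkm share differed by 3.24 percentage points per kilobase of the longest transcript in place of 4.95, and the Aldoa to Aldoc ratio by -0.41 on the log2 scale without iRGC replicate 1 in place of -0.63.

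The replicate numbers did not pair the libraries, since same-numbered libraries correlated at -0.0121, -0.0237 and -0.055 in their deviations. With the replicate number as a block, 2 enzyme genes were still higher and 4 lower, and 6751 genes were past the threshold. The biological coefficient of variation was 36.3%, which limits the precision of every fold change given for 3 libraries against 3.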

Other observations

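Branches that leave glycolysis were measured in the same libraries. Of 19 branch genes, 4 were higher in iRGCs (21.1%) and 5 were lower (26.3%), shares near the 23.3% and 23.1% of all tested genes, so that the counts set the list apart in neither direction. In the synthesis of serine from 3-phosphoglycerate, Phgdh, the first enzyme, measured 9.58, 8.10 and 9.14 CPM in iRGCs and 1.15, 2.28 and 2.36 CPM in cRGCs (log2 fold change 2.21, SE 0.39, edgeR adjusted p = 0.00212), with 73.7% of its windows found elsewhere in the genome. Psat1, the next enzyme, measured 128, 134 and 138 CPM against 75.5, 83.9 and 82.6 CPM (log2 fold change 0.73, SE 0.10, edgeR adjusted p = 6.89e-04), and Psph, the last, overlapped at 0.19 (SE 0.22). In the pentose phosphate pathway the oxidative enzymes G6pdx and Pgd were lower in iRGCs, with log2 fold changes of -0.51 (SE 0.16) and -0.27 (SE 0.10), and Pgd did not pass without iRGC replicate 1 or 2. Rpe and Rpia, which interconvert pentose phosphates, were higher, with 0.94 (SE 0.17) and 0.74 (SE 0.17). Pygb, the brain glycogen phosphorylase, was lower at -0.48 (SE 0.17), and at -0.30 without iRGC replicate 1. Gpd1l was also lower, at -0.46 (SE 0.15).

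Transcription factors known to bind glycolytic genes did not share a direction, with 4 of 8 higher (50%, beside 23.3% of all tested genes) and 2 lower (25%, beside 23.1%) in iRGCs. Hif1a, the oxygen-sensitive factor, measured 476, 463 and 498 CPM in iRGCs and 385, 411 and 410 CPM in cRGCs (log2 fold change 0.25, SE 0.09, edgeR adjusted p = 0.0596), and did not pass without iRGC replicate 2 (adjusted p = 0.107). Its partner Arnt was higher at 0.63 (SE 0.13), and the neural partner Arnt2 was lower, with 150, 160 and 184 CPM against 404, 351 and 338 CPM (log2 fold change -1.15, SE 0.12, edgeR adjusted p = 2.42e-04). Mycl was higher at 0.47 (SE 0.13), and Myc was lower at -0.97 (SE 0.35) with overlapping libraries, but did not pass without iRGC replicate 1 or 2 (edgeR adjusted p = 0.14 and 0.161). Epas1 measured 16.2, 56.5 and 2.77 CPM in iRGCs and 0.192, 2.11 and 0.613 CPM in cRGCs, and was highest in iRGC replicate 2, as was the endothelial gene Cdh5. Of 16 hypoxia-inducible genes outside glycolysis, 6 were higher in iRGCs (37.5%) and 1 (6.25%), Ankrd37, was lower at -1.05 (SE 0.22). Ndrg1 measured 156, 114 and 235 CPM against 52.3, 82.4 and 96.3 CPM (log2 fold change 1.13, SE 0.29, edgeR adjusted p = 0.0125), and Egln3, an oxygen sensor that HIF induces, measured 17.4, 8.10 and 9.49 CPM against 0.884, 2.17 and 2.26 CPM (log2 fold change 2.71, SE 0.48, edgeR adjusted p = 0.00205). P4ha1, Kdm3a and Mxi1 were higher at 0.77, 0.46 and 0.30, of which Kdm3a and Mxi1 did not pass without iRGC replicate 1 (edgeR adjusted p = 0.121 and 0.108), while Vegfa overlapped at 0.11 (SE 0.17).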
